A study of Mus musculus with 39 samples.

Results

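Red blood cell and haem synthesis genes were followed in arrays of mouse brown fat. The set comprised 7 genes chosen by symbol, namely Hba-a1, Hbb-b1, Hbb-b2, Alas2, Slc4a1, Klf1 and Gata1. Of these, 6 had a probe under their symbol in the series table, with 9 probes between them, out of 29411 symbols and 40628 probes in all. Hbb-b2 had none of its own. Weaned C57BL/6J mice, 3-4 weeks old, were split into 5 groups of 30 animals. LFC mice received a diet with 10% of calories from fat and HFC mice a high-fat, high-sucrose diet with 60% of calories from fat. HF5, HF20 and HF75 mice received that same high-fat diet with 5, 20 or 75 µg of KAL-1, a botanical formulation, and 5 animals of each group were killed every 3 weeks. RNA labelled as coming from brown infiltrating macrophages (SVCs, the stromal vascular cells of brown fat) was hybridised to 39 one-colour Agilent arrays, 10 for LFC, 11 for HFC and 6 for each KAL-1 dose.

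LFC and HFC were sampled on 4 days between Day 1 and Day 14, at Week 0 and then from Week 3 to Week 18, with no LFC array at Week 6, and the KAL-1 groups from Week 3 to Week 18. A paper on the liver arrays of the same experiment counts weeks from Day 14 and so takes Day 14 and Week 0 as the same time. By that count Week 0 is no baseline. Here both were kept as separate time labels, each used as a time point. There was 1 array for each diet and time label, so the replicates of a diet were its time points. The p-values for diets, doses and array titles thus rest on the spread left between arrays after the level of each time label was fitted. Those for late against early labels rest on the spread between arrays of a diet at different labels. Those of correlations come from permuting arrays. Whether RNA of several animals was pooled on an array was not given in the sources used here. One characteristic of the HF20 Week 12 array names the high-fat diet alone, while its title and source name give HF20, which was used. The titles of 9 arrays carry the token BA or BAT, whose meaning is not explained. These arrays, called titled below, were 3 of LFC, 2 of HFC, 2 of HF5, 1 of HF20 and 1 of HF75. Most other titles hold B-A or B_A, which differs from BA by a separator only and is not explained either. The title of the LFC Day 6 array, a titled one, starts with a prefix that no other title has. What that prefix means is not given.

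Mature red cells carry haemoglobin, built from alpha and beta globin chains that each hold a haem group. Erythroid precursors make that haem through a pathway whose first step is run by Alas2, while other tissues use the related enzyme Alas1. Slc4a1 (band 3) is the anion exchanger of the red cell membrane. Gata1 and Klf1 are transcription factors of the erythroid precursor that act at globin and haem genes, the former through GATA motifs and the latter through CACCC boxes. Circulating mouse red cells include reticulocytes, which still hold globin messenger RNA, and blood left in a tissue therefore brings globin transcripts with it. Brown fat itself is richly supplied with vessels.

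The globin probes are shown because they decide what the globin values can say. The Hba-a1 probe matched the RefSeq records of both Hba-a1 and Hba-a2, so these copies could not be separated. All 4 probes filed under Hbb-b1 matched RefSeq's Hbb-bt, and P374468 and P213909 matched Hbb-b2 as well. The Hbb-b1 probes P374476 and P260346 share 29 bases, written in capitals, so they are not independent measurements. Each probe is 60 bases long and is given 5′ to 3′.
Hba-a1 probe P278538: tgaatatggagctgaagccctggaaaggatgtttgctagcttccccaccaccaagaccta
Hbb-b1 probe P374476: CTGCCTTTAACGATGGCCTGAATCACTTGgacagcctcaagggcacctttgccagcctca
Hbb-b1 probe P260346: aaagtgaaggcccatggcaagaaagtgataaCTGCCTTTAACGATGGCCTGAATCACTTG
Hbb-b1 probe P374468: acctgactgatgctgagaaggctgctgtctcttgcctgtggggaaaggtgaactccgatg

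Promoters are shown for Hba-a1, Alas2 and Hbb-bt, the RefSeq gene that all Hbb-b1 probes matched. Any link between their motifs and the levels over arrays was not tested. These promoters are the 250 bases before the start site in RefSeq's table for GRCm38.p6, and capitals mark letter matches to a motif on either strand. The GATA motif was searched with the letters AGATAA. The box that Klf1 family factors bind was searched as CCACCC, and the CCAAT box by its name. Hba-a1 lies at chr11:32283422-32283671 on the plus strand, Hbb-bt at chr7:103813924-103814173 on the minus strand and Alas2 at chrX:150547167-150547416 on the plus strand.
Hba-a1: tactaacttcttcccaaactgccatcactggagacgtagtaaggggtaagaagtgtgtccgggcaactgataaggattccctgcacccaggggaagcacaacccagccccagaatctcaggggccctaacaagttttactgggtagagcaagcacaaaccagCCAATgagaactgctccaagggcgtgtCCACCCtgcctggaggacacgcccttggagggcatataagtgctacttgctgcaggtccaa
Hbb-bt: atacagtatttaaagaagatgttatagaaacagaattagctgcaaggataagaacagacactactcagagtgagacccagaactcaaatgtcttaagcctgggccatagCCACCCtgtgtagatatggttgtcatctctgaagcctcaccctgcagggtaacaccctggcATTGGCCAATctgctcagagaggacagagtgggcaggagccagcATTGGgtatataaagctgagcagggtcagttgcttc
Alas2: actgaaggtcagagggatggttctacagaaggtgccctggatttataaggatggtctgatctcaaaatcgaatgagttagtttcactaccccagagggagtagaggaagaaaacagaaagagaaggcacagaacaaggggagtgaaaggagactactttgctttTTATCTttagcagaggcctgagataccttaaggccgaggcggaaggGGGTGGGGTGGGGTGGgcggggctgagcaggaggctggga

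The Hba-a1 window held 1 match to CCACCC and 1 to CCAAT. The Hbb-bt window held 1 match to CCACCC and 3 to CCAAT. Alas2 held 1 match to AGATAA, whose letters lie 86 to 81 bases before the start. It also held 3 matches to CCACCC on the other strand that overlap each other by 1 base. The Klf1 window held 1 CCAAT and that of Gata1 1 match to CCACCC. Only these exact letters were counted and marked. Both globin windows also hold unmarked CACCC letters after another first base, and GATAA letters not preceded by A. Among 32851 promoter windows of the same length, 9.99% held AGATAA, 28.1% CCACCC and 33.8% CCAAT on either strand, so the last pair of motifs was common everywhere.

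Arrays differed widely in brightness, and this touches every level below. The 75th percentile of the processed signal, the value each array was scaled to, ran from 18.1 on HF20 Week 9 to 3974 on HF20 Week 15, with a median of 129.9. It had a median of 852.4 on the 9 titled arrays and of 81.1 on the other 30. HF20 Week 15 stood apart, with 71.4% of its spots marked as outliers by the scanner software. HF5 Week 12 had 18.6% and HFC Week 12 11.1% so marked, against a median of 0.08% over arrays. Levels are log2 signal minus that percentile, so that 0 is the percentile itself. In bulk RNA, fewer cells of a type and less RNA per cell cannot be told apart. As for the labelled tissue, the macrophage markers Emr1, Csf1r, Mrc1, Cd14 and Cd68 were well above background on all 39 arrays. Their median levels ran from -0.24 for Cd68 to 1.68 for Emr1. Lyz2, also on that list, was well above background on 38 arrays with a median of -0.69. The brown adipocyte markers Ucp1 and Cidea were also well above background on all 39, with median levels of 6.23 and 6.71. So were Adipoq (3.85) and Fabp4 (8.89), while Dio2 was so on 36 arrays with a median of -0.92. The lowest Ucp1 level was -3.18.

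The globins were among the brightest signals and often passed the scanner's range. The Hba-a1 probe was well above background on 39 arrays and saturated on 24 of them. Its signal, in scanner units, had a median of 62904 and reached 68967 at most. The brightest Hbb-b1 probe, P374476, was saturated on 29 arrays, P213909 on 17, P260346 on 15 and P374468 on 4. A saturated spot gives only a lower limit on the true signal.

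Scaled Hba-a1 levels ran from 4.1 on HF20 Week 15 through a median of 8.94 to 11.71 on HF20 Week 9. The brightest Hbb-b1 probe ran from 3.97 on HF5 Week 12 through 9.0 to 11.77, also on HF20 Week 9. These extremes included the dimmest and the brightest array of the series. Where a spot is at the top of the scanner's range, its scaled level is set by the array's percentile, and the correlation with the log2 percentile was -0.94 for Hba-a1 and -0.93 for that Hbb-b1 probe. The least saturated Hbb-b1 probe, P374468, ran from 1.04 on HF5 Week 12 through 7.84 to 10.52 on HF75 Week 18. Results on beta globin are therefore given for this probe too. Its correlation with the log2 percentile was -0.81, so its level also went with array brightness.

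**Figure D1:**
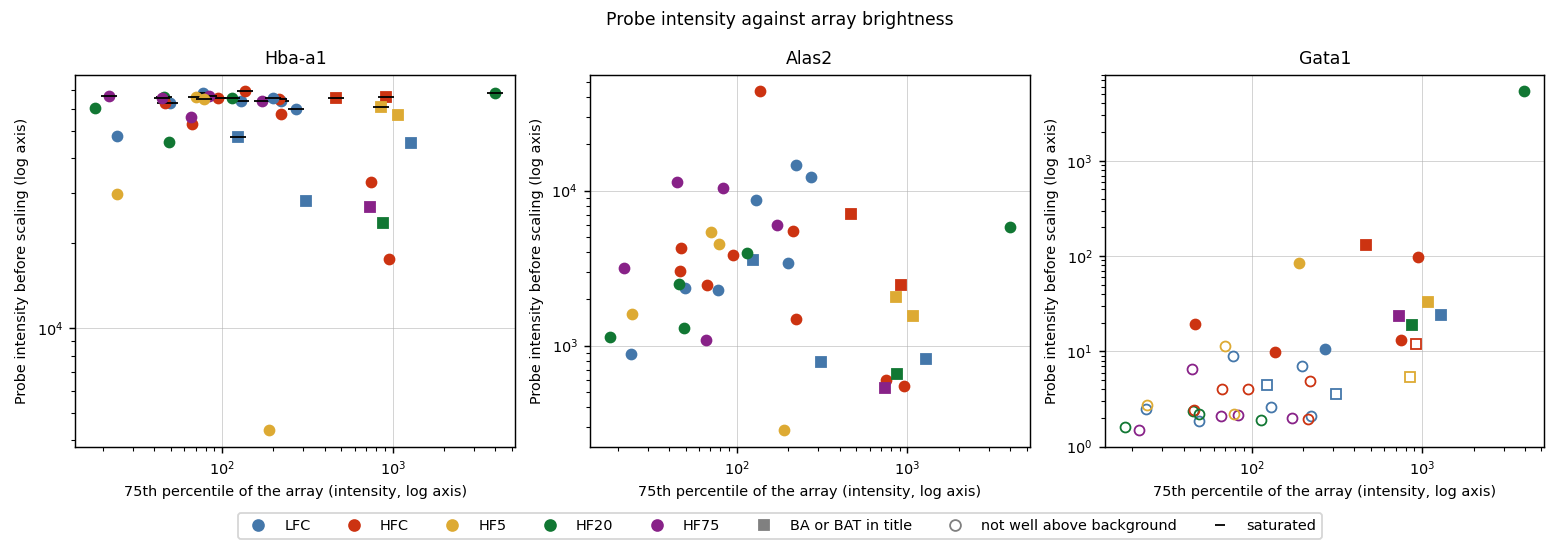
Signal of the Hba-a1, Alas2 and Gata1 probes (log axis, scanner units) against the 75th percentile signal of each of the 39 arrays (log axis). Squares are arrays titled BA or BAT, open points are not well above background and bars mark saturated spots. Hba-a1 flattens near the top of the scanner's range, while Alas2 and Gata1 were saturated on 0 arrays.

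Alas2, the erythroid first enzyme of haem synthesis, was well above background on all 39 arrays and saturated on none. Its signal ran from 285.8 to 43528 scanner units, and its scaled level from -0.79 on HFC Week 12 through a median of 5.11 to 8.32 on HFC Day 6. The SD over arrays was 2.65, larger than that of 99.2% of probes tested, whose median SD was 1.12. Low levels came on 11 arrays at 1.41 or less, 7 of them titled. The other 4 were HFC Week 6, HFC Week 12, HF5 Week 12 and HF20 Week 15, and none of these has BA or BAT in its title. For HFC Week 12 the deposited table correlated with the scanner values at 0.831, less well than other arrays did. That array also had the lowest mean level of the brown adipocyte markers, 0.47 against a median of 4.96 over arrays. Its mean of the macrophage markers, 2.89, was the highest, against a median of 0.63. The remaining 28 arrays, 2 of them titled, lay at 2.76 or more.

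The HFC arrays from Week 3 to Week 18 gave Alas2 levels of 5.2, -0.33, 1.41, -0.79, 2.76 and 6.03. The HF75 arrays at the same weeks gave 6.95, 5.12, 7.18, 4.04, -0.47 and 8.0. In HF75 the single low value was the titled array of Week 15, while HFC was low at Week 6, Week 9 and Week 12, and the groups overlapped. Diet medians of Alas2 were 6.04 in HF75, 5.04 in LFC, 4.92 in HF20, 4.67 in HFC and 3.56 in HF5. The LFC and HFC medians include arrays of Day 1 to Week 0, which no KAL-1 group has. On the HFC arrays of Week 3 to Week 18 alone the median was 2.09. The SD within a diet was 2.21 to 3.11, so no neighbours in the order of diet medians differed beyond their spread.

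Slc4a1, the red cell anion exchanger, was dimmer but also well above background on 39 arrays, with signals of 32.3 to 2845 scanner units. Its outlier spot on HF20 Week 15 was left out, leaving 38 arrays. Levels ran from -4.53 on HFC Week 6 through 1.06 to 3.72 on LFC Day 1. The SD of 2.45 was larger than that of 98.4% of probes. Diet medians were 1.29 in HF75, 1.22 in HF20, 1.12 in LFC, 0.47 in HFC and 0.05 in HF5, with an SD within a diet of at least 2.29. Here too LFC and HFC include their arrays of Day 1 to Week 0. On the HFC arrays of Week 3 to Week 18 alone the median was -1.79.

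The factors Klf1 and Gata1 were near the detection limit. Klf1 was well above background on 16 arrays and Gata1 on 12. Levels of Klf1 on the 37 arrays with a usable spot ran from -6.86 on HFC Week 9 through -4.09 to 0.93 on HF20 Week 15. That top value comes from the array on which most spots were marked as outliers. Gata1 levels on 36 arrays ran from -7.29 on HF5 Week 15 through -4.81 to -1.28 on HFC Day 14. Their SDs, 1.76 and 1.34, were larger than those of 83.4% and 65.3% of probes. Diet medians lay between -4.99 and -3.47 for Klf1 and between -5.04 and -4.40 for Gata1. On most arrays the values of both factors are thus close to background and their differences are poorly measured.

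**Figure D2:**
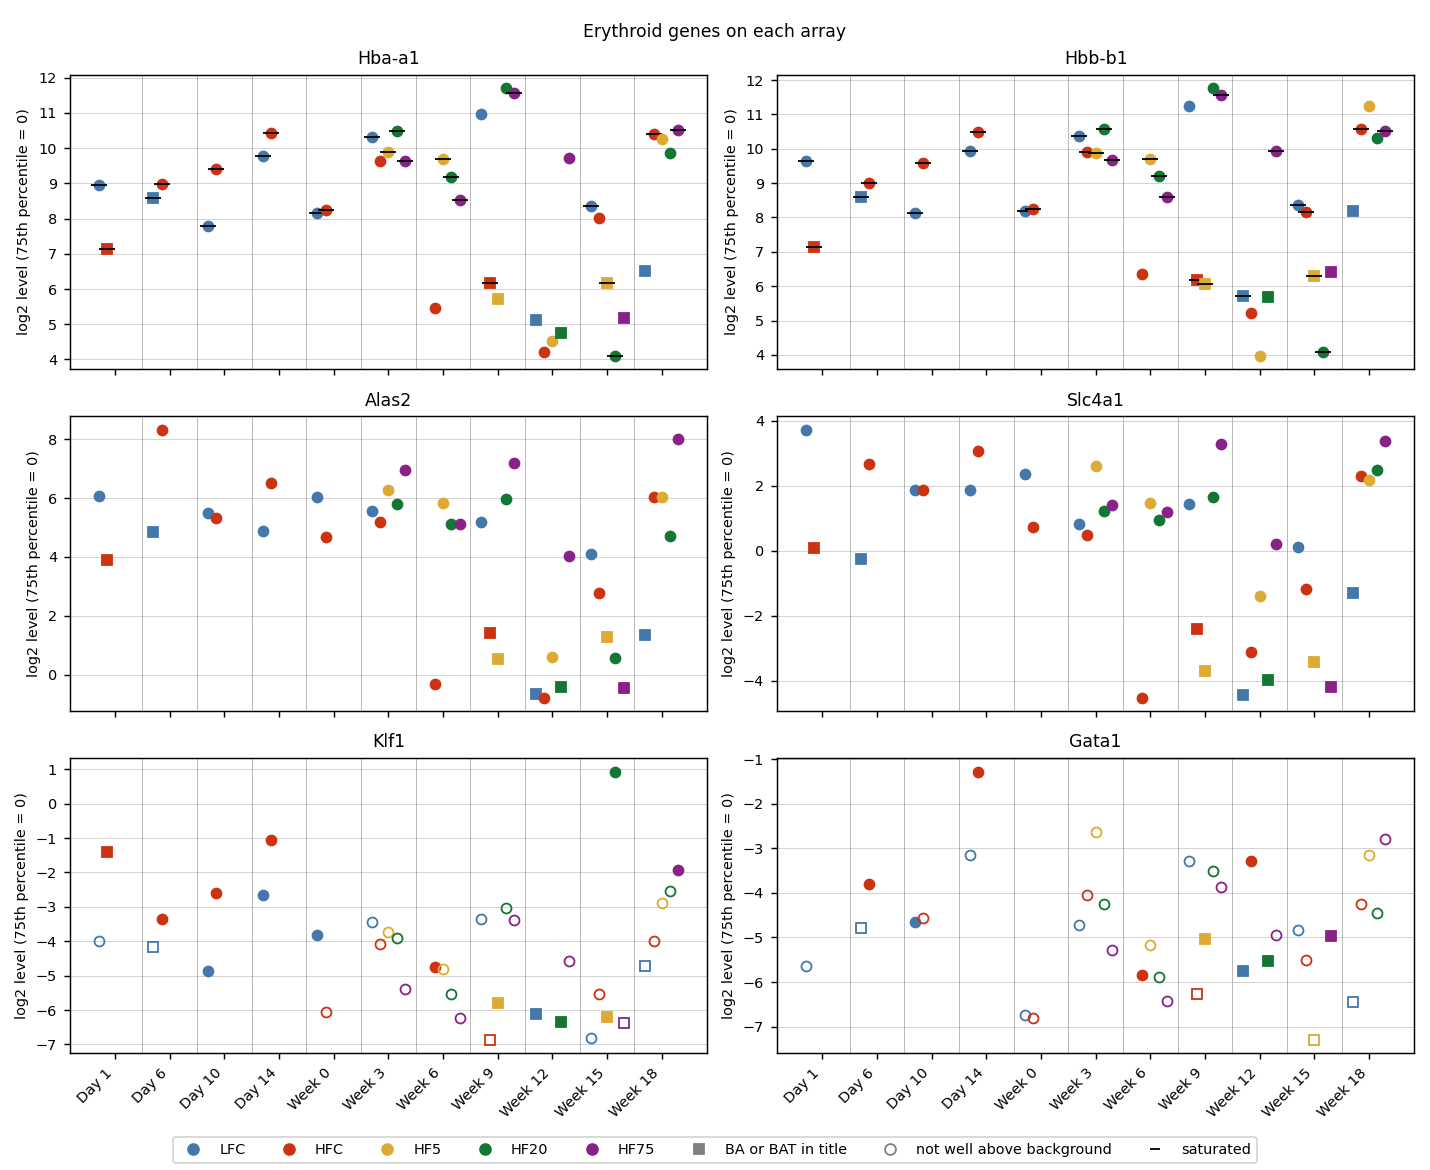
Scaled log2 level of each member (y axis) at each time label (x axis), coloured by diet. Squares are arrays titled BA or BAT, open points are not well above background and bars mark saturated spots; Alas2 and Slc4a1 fall on largely shared arrays, while most Klf1 and Gata1 points are open.

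The arrays titled BA or BAT differed from the rest in most members. Alas2 levels on the 9 titled arrays ran from -0.66 through a median of 1.27 to 4.85, and on the other 30 from -0.79 through 5.41 to 8.32. Slc4a1 ran from -4.45 through -3.43 to 0.07 on titled arrays, and from -4.53 through 1.48 to 3.72 on 29 others. The highest titled arrays were Day 1 or Day 6 arrays in both genes, and the groups overlapped. With diet and time point as blocks, limma put Slc4a1 13.2-fold lower on titled arrays (log2 difference -3.72, SE 0.48, adjusted p = 4.26e-05). Alas2 was 9.25-fold lower (-3.21, SE 0.59, adjusted p = 0.000263).

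The globin probes also had lower scaled levels, with part of the spots at the scanner's limit, where the level is set by the array's percentile. Hba-a1 was saturated on 4 of 9 titled and 20 of 30 other arrays, and its level was lower by 2.46 on the log2 scale (log2 difference -2.46, SE 0.63, limma adjusted p = 0.0026). The brightest Hbb-b1 probe gave -2.06 (SE 0.62, limma adjusted p = 0.0076). When saturated spots were left out, a setting chosen after seeing the data, that probe gave 0.51 (adjusted p = 0.821) and its direction turned, while Hba-a1 gave -3.82 (limma adjusted p = 0.00793). The least saturated Hbb-b1 probe, saturated on 0 titled and 4 other arrays, gave -2.14 (SE 0.65, limma adjusted p = 0.00803). Without the Week 9 arrays, Hba-a1 gave -1.73 (adjusted p = 0.0634) and the brightest Hbb-b1 probe -1.24 (adjusted p = 0.158), so these calls rested on that week.

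For the factors, Gata1 gave -1.81 (SE 0.42, limma adjusted p = 0.00133) and Klf1 -1.57 (SE 0.68, adjusted p = 0.0544). Gata1 was well above background on 5 titled and 7 other arrays, and under quantile normalisation its difference was 0.07 (adjusted p = 0.908), with the other sign. In total 5 of 6 measured members passed the test and all 5 were lower, against a background of 52.4% of 34035 probes called in either direction, 31.8% lower and 20.5% higher. The median difference over all probes was -0.30. The probe calls of 6986 higher and 10834 lower became 7637 and 3488 under quantile normalisation, 4063 and 16237 when the percentile was taken over probes detected on all arrays, and 7752 and 20670 with normexp background correction. Alas2 and Slc4a1 were called lower in all 25 alternative settings run, with ranges of -3.93 to -1.82 and -4.21 to -2.34. Array brightness moved with the titles, as given above, and its part in these differences was not tested.

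By time point, the titled mean of Alas2 lay below the other arrays' mean at all 6 times that held both kinds. The Alas2 difference was -2.15 at Day 1, -3.47 at Day 6, -5.14 at Week 9, -1.82 at Week 12, -2.07 at Week 15 and -4.87 at Week 18. At Week 12 the lowest untitled Alas2 value, -0.79, lay below both titled ones. Slc4a1 differed by between -5.18 at Week 9 and -2.78 at Week 12, and every titled Slc4a1 value was below every other one at the same time. For Klf1 the sign was not the same throughout, with 2.58 at Day 1 and -3.07 at Week 9.

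Genes of the same pathways were counted from fixed lists. Other haem synthesis enzymes went the opposite way to Alas2 between titled and other arrays, with 6 of 8 higher, 0 lower and a median of 1.53. Under the 3 other scalings 4 to 5 of the 8 were called higher, with 1 lower under normexp. Alas1, the enzyme of the same first step outside the erythroid lineage, gave 1.84 (limma adjusted p = 0.00209). Uros gave 1.98, Alad 1.76, Urod 1.30 and Fech, which inserts the iron, 1.18, all called higher, while Ppox (0.40) and Cpox (0.15) did not pass. Of the 5 measured genes of haem export and breakdown, the iron exporter Slc40a1 (1.52) and the haem oxygenase Hmox2 (1.03) were called higher, and Hmox1 gave 0.12.

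Red cell genes that are no members are given beside the 31.8% of all probes called lower and the 20.5% called higher. Of 7 late erythroid genes, 4 were called lower, among them Hemgn (-2.34), Trim10 (-2.04) and Bpgm (-1.17), the last making the red cell's 2,3-bisphosphoglycerate. Car1 (-0.10), Car2 (0.15) and Bnip3l (-0.33) did not pass. The embryonic globins Hbb-bh1 (-2.99) and Hbb-y (-2.13) were both called lower, and such probes may share sequence with the adult genes. Among 9 red cell membrane and surface genes, 4 were called lower, with the blood group protein Kel at -2.64. Another 2 were called higher, Gypc (1.40) and the transferrin receptor Tfrc (1.48). Of 8 erythroid regulators, Nfe2 (-4.61), Myb (-2.49), Lmo2 (-2.06) and Bcl11a (-1.87) were called lower, and Epor, the erythropoietin receptor, gave 0.34. Under quantile normalisation the calls fell to 1 of 7 late erythroid genes, 0 of 2 embryonic globins, 1 lower of 9 membrane genes and 2 of 8 regulators, though the list medians stayed below 0. Eraf, the older symbol of the alpha globin chaperone, was named after its values were seen and gave -3.0 (limma adjusted p = 0.000722).

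Markers of other blood cells moved with the members on the titled arrays. All 6 neutrophil markers were called lower with a median of -4.65, for example S100a8 at -4.66 and Ngp at -5.03, and all 6 were called lower under the 3 other scalings too. Of 5 platelet markers 3 were called lower, with Gp9 at -2.41 and Ppbp at -2.20. All 4 B cell markers, 2 of 4 T cell markers, 4 of 6 macrophage markers and 4 of 6 mast cell markers were called lower, and of 2 eosinophil markers tested 1, while the mast cell marker Kit was called higher (1.73). Under quantile normalisation 1 mast cell and 2 macrophage markers were called lower, and 1 T cell marker higher. The mean level of the neutrophil list lay between -4.36 and 0.96 on titled arrays and that of the platelet list between -3.65 and 0.62. Among brown adipocyte markers Dio2 (2.39) and Adipoq (2.21) were called higher, Fabp4 (-2.36) lower, and Ucp1 gave 0.67. Of 4 endothelial markers, Pecam1 (-1.06) alone was called, and the list median of -0.64 was 0.38 under normexp. The part of the other cell types in the members' differences was not tested.

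**Figure D3:**
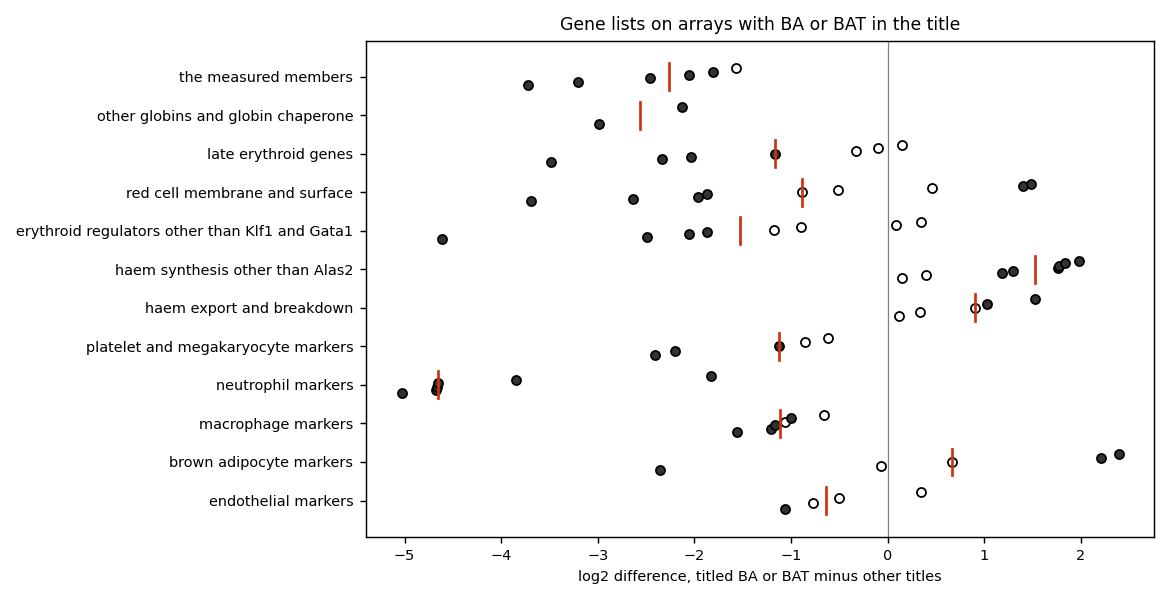
Log2 difference, titled BA or BAT minus other arrays, of each measured gene (points) by list. Filled points passed limma's adjusted p of 0.05 and red lines are list medians; the median is 1.53 for other haem synthesis enzymes and -4.65 for neutrophil markers.

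The high-fat diet against the low-fat diet gave no called difference. HFC minus LFC was -0.27 for Alas2 (SE 0.85, 95% interval -2.01 to 1.47), -0.48 for Slc4a1 (SE 0.85) and -0.40 for Hba-a1 (SE 0.78). The least saturated Hbb-b1 probe gave -0.36, Klf1 0.39 and Gata1 0.51. Of the members, 0 of 6 passed limma's adjusted p, as did 0% of all 34035 probes, while 959 probes had an unadjusted p under 0.05. At the 10 time labels with both diets Alas2 was higher in HFC at 3 and lower at 7, with differences of -3.78 to 4.70, so the direction changed from label to label. At Day 14 the deposited table takes the HFC array as its zero, unlike at other times, and without Day 14 Alas2 gave -0.47.

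KAL-1 at its highest dose gave the largest diet differences of Alas2 and Slc4a1, though none was called. HF75 minus HFC was 2.53 for Alas2 (SE 1.06, 95% interval 0.37 to 4.69), with an unadjusted limma p of 0.0234 and an adjusted p of 1. The least saturated Hbb-b1 probe gave 2.41 (SE 0.95) and Slc4a1 2.18 (SE 1.06). Hba-a1 gave 1.63, the brightest Hbb-b1 probe 1.49, Klf1 0.33 and Gata1 0.08. Alas2 was higher in HF75 at 5 of 6 weeks, most at Week 9 (5.77), where the HFC array was titled, and lower at Week 15 (-3.23), where the HF75 array was titled. Neutrophil markers went the same way, with 6 of 6 positive and a median of 1.53 beside 1.56 for the members, and none was called. Their part was not tested. With no time point in the fit, HFC also counts its arrays of Day 1 to Week 0, and the Alas2 difference was 1.23 (SE 1.33). Over 27 alternative settings that difference ran from 1.23 to 3.77 and was called in none. Of the members 0 of 6 were called, as were 0% of probes, with 1210 at an unadjusted p under 0.05.

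The lower doses gave smaller differences of these genes from HFC. Alas2 differed by 0.82 (SE 1.06) at the 5 µg dose and by 1.01 (SE 1.06) at 20 µg, and Slc4a1 by 0.92 (SE 1.06) and 1.41 (SE 1.13). Klf1 gave 1.57 at 20 µg (SE 0.90, limma adjusted p = 0.998), and 0.38 without the HF20 Week 15 array. HF75 minus HF5 was 1.71 for Alas2 (SE 1.12, 95% interval -0.58 to 3.99) and 1.26 for Slc4a1 (SE 1.12). All 3 contrasts called 0 of 6 members and 0% of probes, with 498, 907 and 1232 probes at an unadjusted p under 0.05. Over HFC and the doses, taken as equal steps, the fitted slope of Alas2 was 0.85 per step (SE 0.32, 95% interval 0.18 to 1.52, unadjusted p = 0.0156, limma adjusted p = 0.558) and did not pass. Slc4a1 gave 0.72 per step, the least saturated Hbb-b1 probe 0.79, Klf1 0.33 and Gata1 0.02. Again 0 of 6 members and 0% of probes were called, with 2395 probes at an unadjusted p under 0.05. The comparisons with HFC share its 6 arrays of Week 3 to Week 18, among which Alas2 was low at 3.

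**Figure D4:**
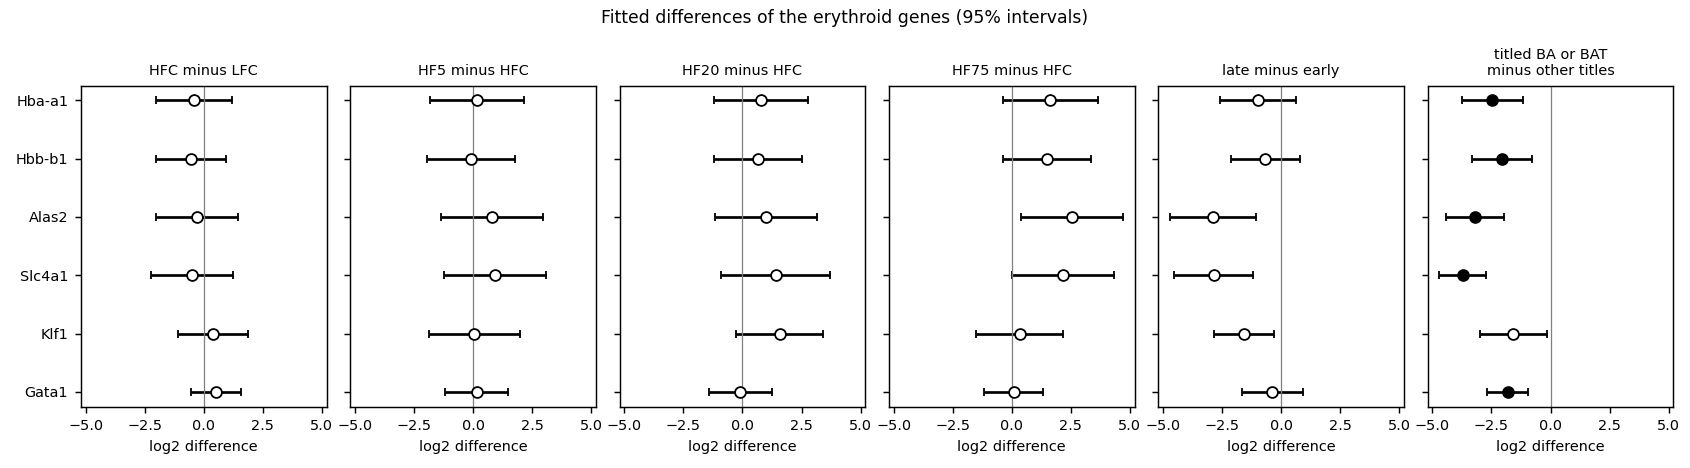
Log2 difference of each member with its 95% interval (x axis) in each comparison. Filled points passed limma's adjusted p of 0.05; only points of the comparison of titled with other arrays are filled, and Alas2 in HF75 minus HFC stands at 2.53.

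In LFC and HFC together, all 6 measured members had lower means from Week 3 on than from Day 1 to Week 0, and none was called. Alas2 ran from 3.91 through 5.41 to 8.32 on the 10 early arrays and from -0.79 through 2.76 to 6.03 on the 11 late ones, and the ranges overlapped. The late minus early difference was -2.89 (SE 0.88, limma adjusted p = 0.115). Slc4a1 ran from -0.26 through 1.88 to 3.72 early and from -4.53 through -1.17 to 2.31 late, with a difference of -2.86 (SE 0.80, adjusted p = 0.0862). The least saturated Hbb-b1 probe gave -2.37 (adjusted p = 0.161), Klf1 -1.57 (adjusted p = 0.213) and Gata1 -0.37.

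Hba-a1 and the brightest Hbb-b1 probe were saturated on all 10 early arrays and on 4 and 7 of the 11 late ones, so no fold is given for them. Of the members 0 of 6 passed, against 0.705% of all probes (29 higher and 211 lower), and 5486 probes had an unadjusted p under 0.05. Without the titled arrays Alas2 gave -2.34 and Slc4a1 -2.59. Among the lists, Epor (-1.57, adjusted p = 0.0376), Zfpm1, a partner of Gata1 (-1.33, adjusted p = 0.0393), the platelet integrin Itga2b (-2.40) and the neutrophil enzyme Mpo were called lower. None of these 4 calls held under normexp, and without the titled arrays 1 probe in all was called. All 7 late erythroid and all 8 regulator genes had negative differences (6 of 7 and 6 of 8 under quantile normalisation), and of 8 other haem synthesis enzymes 7 had positive ones with none called. Several other cell types moved the same way, with negative differences in 6 of 6 neutrophil markers (median -1.80), 5 of 5 platelet markers (-1.81) and 4 of 4 endothelial markers (-1.31). All 4 of 4 B cell and 4 of 4 T cell markers were negative too. Under quantile normalisation 1 of 4 B cell and 3 of 4 T cell markers were positive. Brown adipocyte markers went the other way, with 4 of 5 positive (median 0.53). Over all 34035 probes 13311 had a positive difference. The part of these cell types in the members' differences was not tested.

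Over arrays the haemoglobin, haem and membrane genes varied together. Among 15 member pairs the closest, apart from both globins, was Alas2 with Slc4a1, with Pearson r = 0.95 and Spearman rho = 0.91 over 38 arrays. Both had a permutation p of 1e-05, the smallest that 100000 resamples can give, and adjusted values of 2.14e-05 and 1.87e-05. Without the 2 arrays farthest from the Alas2 median r was 0.94, within titled arrays 0.93 and within the others 0.91. On either side of the widest gap in Alas2 levels r was 0.67 below (10 arrays) and 0.79 above (28 arrays). On log2 signals without scaling, a setting chosen after seeing the data, r was 0.85, the highest of all pairs, while Hbb-b1 with Slc4a1 gave 0.29 (permutation adjusted p = 0.127). Over all 15 pairs the median r was 0.65, against 0.25 under quantile normalisation and 0.16 on unscaled signals, and 13, 7 and 7 pairs passed. Hba-a1 with Alas2 gave 0.90, and the least saturated Hbb-b1 probe with Alas2 gave 0.95, with 0.61 below the gap and 0.84 above it.

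The factors Klf1 and Gata1, near background on most arrays, followed this pattern less closely. The mean of 8 other erythroid regulators gave r = 0.76 with Alas2 (rho = 0.55), with 0.89 within titled arrays and 0.54 within the others. With Slc4a1 that mean gave 0.83. Alas2 with Klf1 gave r = 0.38 (rho = 0.51, permutation p = 0.0188, adjusted p = 0.0217), with 0.75 within the 9 titled arrays and 0.01 within 28 others. Without the HF20 Week 15 array it was 0.60. Alas2 with Gata1 gave r = 0.42 (rho = 0.48, permutation p = 0.0107, adjusted p = 0.0134), with 0.10 within titled arrays and 0.23 within the others. That pair turned to -0.11 under quantile normalisation and to -0.29 on unscaled signals. Klf1 with Gata1 gave 0.76 (permutation adjusted p = 2.14e-05, 35 arrays) and 0.25 under quantile normalisation (adjusted p = 0.262). Slc4a1 with Klf1 gave 0.65. Whether the correlations of Alas2 with Slc4a1 and with the factors differ was not tested, and all levels on an array share its percentile. The log2 percentile itself had r = -0.82 with Alas2, -0.83 with Slc4a1, -0.58 with Gata1 and -0.30 with Klf1.

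**Figure D5:**
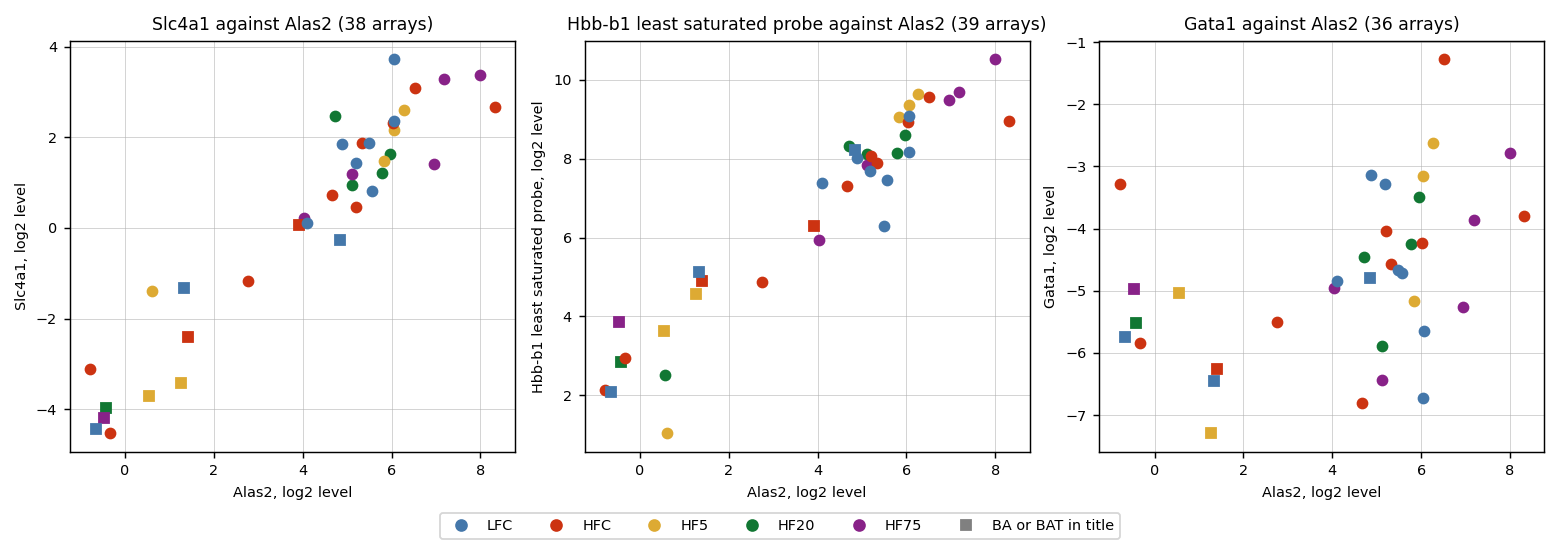
Scaled log2 levels of member pairs, 1 point per array, with squares for arrays titled BA or BAT. Alas2 with Slc4a1 lies along a line (r = 0.95), as does Alas2 with the least saturated Hbb-b1 probe (r = 0.95), while Alas2 with Gata1 (r = 0.42) scatters.

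Compared with lists, the Alas2 level went with the mean of the late erythroid genes (r = 0.89 over 39 arrays, 0.79 within titled and 0.84 within other arrays). It also went with other blood markers, at r = 0.81 for the platelet list (0.96 and 0.69 within) and 0.70 for the neutrophil list (0.86 and 0.42 within). These 3 correlations had a permutation p of 1e-05 and an adjusted p of 2e-05 over 30 in the family, and r = 0.87, 0.83 and 0.71 without the 2 farthest arrays. Macrophage markers gave r = 0.41 (0.08 within titled and 0.19 within other arrays) and brown adipocyte markers 0.20. The other haem synthesis enzymes gave -0.38, with -0.92 within titled arrays and 0.18 within the others. Array brightness was shared by all of these values, and its part was not tested.

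Among 17205 genes well above background on at least 20 arrays, those most like Alas2 included Slc25a37, mitoferrin, which carries iron into the mitochondria of erythroid cells (r = 0.943 over 39 arrays), then Prss35, Apol11b and Gm2980. Those most like Slc4a1 included Eraf (0.933), Slc25a37 (0.932), Apol11b and Cdc25b. The median r over all genes was 0.133 for Alas2 and 0.058 for Slc4a1. Those most like Hba-a1 were LOC545679 (0.954), Gm12164, Gm10222, the fatty acid binding protein Fabp4 (0.931) and Tpt1p. Hba-a1 was saturated on 24 of 39 arrays, so this order is not comparable with those of Alas2 and Slc4a1. The log2 percentile had r = -0.94 with Hba-a1, -0.82 with Alas2 and -0.83 with Slc4a1, so array brightness touches all of these orders. Klf1 was most like Apba2 (0.862) and Gata1 most like Tex21 (0.844), with both members near background on most arrays.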

How the data were processed

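The authors deposited 1 scanner output per array, whose values are background-subtracted signal intensity, made with Agilent Feature Extraction (9.1 per the submitters' processing notes), and a series table of log2 ratios against an array set to zero at the same time (none at Week 6). The deposited log2 table was used for gene symbols and probe sequences, and as a check of the arrays against their labels. At Day 14 its zero array is HFC, whereas LFC is zero at other times. Flag columns mark spots well above background, saturated or outlying. Spots with outlier flags were dropped, spots of a probe averaged, log2 intensity taken and each array's 75th percentile subtracted. A gene was read from its brightest probe. Probes well above background on at least 6 arrays (34035 of 40628) entered a two-sided limma fit (lmFit and eBayes, version 3.58.1, R 4.3.3), with Benjamini-Hochberg adjustment over all probes and a threshold of 0.05. Diet, KAL-1 and title comparisons had diet and time point as blocks, and late against early had diet. The code was tested on simulated data. Correlations used two-sided permutation tests (100000 resamples, scipy 1.17.1). Named genes were the members, list genes past the threshold or, for each list, the up to 3 with the largest moderated t, and the 5 genes most like a member. Apart from Eraf, Alas1 and the markers given beside results, names followed that rule. Members and lists were chosen with earlier results of these data known. For arrays, the number of arrays limits precision. Alternatives covered scaling, background correction, filters, weights, blocks, and leaving out arrays or times. Some genes that this rule names are not reported here.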

Additional observations from a re-analysis of the deposited data

Results flagged for a closer look

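Slc4a1 on the HF20 Week 12 array, at -3.98, lay far below the other HF20 arrays, the next lowest of which was 0.94. Its gap was 0.763 of the range of the 5 HF20 arrays with a usable spot. This array has BA or BAT in its title, and it is the one whose labels name different diets. In all, 26 groups were tested this way and 1 stood out, and chance marks about 1 in 20 groups.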

How the results depend on the processing

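Of 1224 values of single members under alternatives, 1151 kept their direction and side of the threshold or moved by less than the replicate spread, 57 moved more, 4 weakened, 10 passed the threshold newly and 2 turned. No diet, dose or time value of a member passed under any of 1075 alternatives, and 89 had the other sign. The values that turned were Gata1 between titled and other arrays under quantile normalisation (0.07) and the brightest Hbb-b1 probe with saturated spots left out (0.51). Correlations of Gata1 also turned under quantile normalisation and on unscaled signals, being -0.21 and -0.49 with Hba-a1, -0.23 and -0.36 with Hbb-b1, -0.11 and -0.29 with Alas2, and -0.07 and -0.20 with Slc4a1; the cause was not tested. With normexp, Hba-a1 gave -0.77 (limma adjusted p = 0.176) and the brightest Hbb-b1 probe -0.49 (adjusted p = 0.359) between titled and other arrays. Klf1 was called lower there in 10 of 24 alternatives.

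Counts of probes called moved as follows. HFC minus LFC (0) gave 2 under quantile normalisation, 1 with the percentile over detected probes, 2 with probes detected on all arrays, 32 with array weights, 1 without HF20 Week 15, 2 without titled arrays, 1 with saturated spots left out and 4 with the title as a covariate. The dose trend (0) gave 37 with array weights and 74 with the title covariate, and HF75 minus HFC (0) gave 3 without titled arrays and 1 with the title covariate. Late minus early (240) gave 685 with the percentile over detected probes, 0 with normexp, 71 without a filter, 1968 with array weights, 104 with scan date as a random block and 1 without titled arrays. Titled minus other (17820) gave 11125 under quantile normalisation, 28422 with normexp and 4923 with probes detected on all arrays, where fewer probes were tested. The saturation and title covariate settings and the unscaled signals were chosen after seeing the data. Leaving out each time point in turn gave 0 to 1 probes for HFC minus LFC, 0 to 7 for the dose trend, 4 to 751 for late minus early (lowest without Day 1, highest without Week 15) and 10061 to 20338 for titled arrays (lowest without Week 12, highest without Day 1). Members called on titled arrays were 3 to 6, with 3 without Week 9.

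Without the time point as a replicate block, Alas2 in HF75 minus HFC was 1.23, with the HFC arrays of Day 1 to Week 0 counted in. Titled minus other then called 16096 probes, and no member's call in the diet or dose comparisons changed. LFC and HFC deviations at the same time label correlated at a median of 0.1785 (-0.537 to 0.808) over 10 labels, 5 of them above 0.1. The time labels thus share a number and do not pair arrays throughout. Slide as a random block could not be fitted for late minus early. Brightness and saturation limit the globins, and signals near background limit Klf1 and Gata1.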
